A study of Homo sapiens with 36 samples.

Results

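Chaperonins are barrel-shaped complexes that fold proteins inside a closed chamber. The 10 human genes described here, of 57500 gene rows in the count files, encode the 8 paralogous subunits of the cytosolic chaperonin TRiC (TCP1, CCT2, CCT3, CCT4, CCT5, CCT6A, CCT7 and CCT8) and the mitochondrial chaperonin HSPD1 with its co-chaperonin HSPE1. They were chosen by symbol, as the members of these complexes, with earlier results of these data known. All 10 passed the filter on low counts that left 17720 genes. Messenger RNA was sequenced in THP-1, an established human monocytic leukaemia line, after 4 h at 5% or 10% CO2. The media were buffered DMEM with serum in every condition, and 10% CO2 models buffered hypercapnia. At each CO2 level, cells were left untreated or received lipopolysaccharide (LPS, a bacterial cell wall component, 2.5 µg/ml) for the last 2 h.

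All cells carried a lentiviral short hairpin RNA, so the controls were transduced cells too. The 3 lines were shNT (a non-target hairpin), shNR4A2 (targeting NR4A2) and shNR4A3 (targeting NR4A3). The targeted genes encode orphan nuclear receptors that LPS induces. With 2 CO2 levels and 2 LPS states in each line there were 12 conditions of 3 replicates, 36 libraries in all. The study describes the 3 replicates as individual experiments.

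TRiC is built of 2 stacked rings that each hold 1 copy of all 8 subunits. Its best known clients are actin and tubulin, which are handed to it by the prefoldin complex. HSPD1 forms the chamber that folds proteins imported into the mitochondrial matrix, and HSPE1 is the lid of that chamber. HSPD1 and HSPE1 are known targets of the heat shock response and of the mitochondrial unfolded protein response.

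The genes lie on 7 chromosomes. By the coordinates in the count files (GRCh38), TCP1 (ENSG00000120438) is at chr6:159778498-159789749 on the minus strand, CCT2 (ENSG00000166226) at chr12:69585334-69601570 on the plus strand, CCT3 (ENSG00000163468) at chr1:156308968-156367873 on the minus strand and CCT4 (ENSG00000115484) at chr2:61868089-61888804 on the minus strand. CCT5 (ENSG00000150753) is at chr5:10249921-10266412 on the plus strand, CCT6A (ENSG00000146731) at chr7:56051630-56063989 on the plus strand, CCT7 (ENSG00000135624) at chr2:73233420-73253021 on the plus strand and CCT8 (ENSG00000156261) at chr21:29055805-29073797 on the minus strand. HSPD1 (ENSG00000144381, chr2:197486581-197516737, minus strand) and HSPE1 (ENSG00000115541, chr2:197499994-197503457, plus strand) are divergent neighbours whose exons overlap by 281 bases. Whether the counting used strand is not given, so reads in that stretch cannot be assigned to one of them with certainty. It makes up 6.62% of the exonic length of HSPD1. HSPE1 shares 23.9% of its exonic bases with another gene on either strand, 192 of them with the readthrough transcript HSPE1-MOB4, which had 0 to 8 counts per library. CCT5 shares 30.1% of its exonic bases with an antisense gene, to which 2 to 22 counts per library were assigned. The annotated pseudogenes of the 10 genes, 58 in all, had counts equal to 0.503% of the counts of the genes themselves, with the highest share for CCT6A (4 pseudogenes, 3.32%).

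RefSeq promoter windows (GRCh38.p14, 250 bases before to 50 after a start) were held for 9 of the 10 genes, CCT6A being the exception. They were searched for the inverted pairs of the heat shock element, GAANNTTC and TTCNNGAA, and for the palindromic E-box CACGTG, which read the same on both strands. Of 27305 genes with a window, 8.21%, 9.46% and 8.77% held these 3 motifs. The matches are printed as a description, and a link between them and the CO2 responses was not tested. Capitals mark the matched letters, positions are counted from the start of the RefSeq transcript, and all are written 5′ to 3′ on the strand of the gene.
HSPD1, chr2:197500062-197500090, minus strand, match from -245 to -228: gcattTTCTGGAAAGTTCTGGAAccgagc
TCP1, chr6:159789820-159789839, minus strand, match from -231 to -224: tgaggcGAAGGTTCaacctc
CCT2, second start, chr12:69585794-69585813, plus strand, match from -89 to -82: agcgaaGAAATTTCtagtgt
CCT4, chr2:61888607-61888624, minus strand, match from 39 to 46: gccgctTTCTGGAAggtt
HSPD1, second start, chr2:197500351-197500368, minus strand, match from -88 to -83: tggcgaCACGTGaaaaaa

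The first HSPD1 run holds 1 GAANNTTC and 2 TTCNNGAA matches that overlap, that is 4 alternating repeats of the heat shock element. GENCODE 44 places it upstream of the main start and within a 5′ exon of the alternative transcripts HSPD1-209 and HSPD1-224. The E-box lies at chr2:197500357-197500362, between the second start of HSPD1 (197500274) and the start of HSPE1 (197500379), which are 104 bases apart on opposite strands, so it falls in the windows of both genes. The CCT2 match lies upstream of the second start only: it is downstream of the first, within the transcript CCT2-201 and in exons of CCT2-202 and CCT2-213. The CCT4 match is inside the 5′ untranslated part of CCT4-201. The HSPE1 window held the E-box and neither pair of the heat shock element. None of the 3 motifs was found in the windows of CCT3, CCT5, CCT7 and CCT8. A match is a description of the letters and is no evidence of binding.

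Libraries held 16171161 to 23929138 counts, and the 10 genes had at least 1337 counts in every library. In mean level, each knockdown line had less of its target than shNT cells in all 4 conditions. With LPS at 5% CO2, where the targets were induced, NR4A2 was 62.7 ± 11.7 TPM (a read share corrected for gene length, mean ± SD, n = 3) in shNT and 21.2 ± 6.78 TPM in shNR4A2 cells, and NR4A3 was 31.7 ± 0.708 TPM in shNT and 17.3 ± 0.807 TPM in shNR4A3 cells. At 10% CO2 without LPS NR4A3 was near the floor, at 0.263 ± 0.101 TPM in shNT and 0.205 ± 0.0240 TPM in shNR4A3 cells, and the libraries overlapped. The myeloid markers SPI1 (at least 467 TPM) and CD4 (at least 129 TPM) were present in every library. The classical monocyte markers CD14 (7.47 to 66.7 TPM) and CD68 (2.23 to 6.46 TPM) were lower. The markers of T cells, epithelium, fibroblasts and erythroid cells stayed at or below 1.59 TPM (KRT8), the erythroid HBB and the B cell gene MS4A1 had a median of 0, and of the endothelial markers CDH5 was at or below 0.263 TPM and PECAM1 at 74.0 to 289 TPM. Transcripts of the mitochondrial genome took a larger part of the counts at 10% CO2. Their median share in cells without LPS was 1.76% (1.05% to 2.12%, 9 libraries) at 5% CO2 and 2.91% (1.55% to 3.18%) at 10%, and with LPS it was 1.68% (1.28% to 2.19%) and 2.36% (1.54% to 4.15%). This share moved with the CO2 results below, and its part in them was not tested.

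Levels are given in TPM, for which the deposited counts were divided by the exonic length of each gene, so that genes can be compared per length. In all 12 conditions CCT2 was the least abundant TRiC subunit, at 182 to 278 TPM. The most abundant was CCT8, CCT5 or CCT3, depending on the condition, at 444 to 608 TPM. The highest subunit exceeded the lowest by a ratio of 1.99 to 2.55. The 8 proteins assemble in equal numbers, and these RNA levels do not measure protein. CCT2 was set apart from the next subunit in all 12 conditions, with no overlap of the replicates. Among the other neighbours in the order many did overlap: of 7 neighbouring pairs, 2 to 5 overlapped in each condition. CCT4 (301 to 407 TPM in condition means), CCT7 (319 to 418 TPM) and CCT6A (at most 393 TPM) exchanged places from condition to condition. HSPD1 was more abundant than the mean subunit in every condition, by a ratio of 1.41 to 1.89. HSPE1 was 2.92 to 3.70 times lower than HSPD1. The lengths count every annotated exonic base of a gene, from 1977 bases for HSPE1 to 5839 for CCT5, so the order between genes depends on the annotation.

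Across conditions, the order of the means followed CO2 for most of the genes. For HSPD1, HSPE1, CCT3, CCT4, CCT6A and CCT7, all 6 conditions at 5% CO2 had lower means than all 6 at 10% CO2. For HSPD1 the lowest mean was that of shNR4A2 cells at 5% CO2 (477 ± 67.7 TPM) and the highest that of shNR4A3 cells at 10% CO2 + LPS (848 ± 106 TPM), and all 11 pairs of neighbours in the order of its 12 conditions overlapped. Neighbours overlapped in 11 of 11 pairs for CCT2, CCT5, CCT6A and CCT8 too, and in 8 to 10 for the other genes. CCT8 had the narrowest range, and its lowest 3 means were all at 10% CO2.

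**Figure D1:**
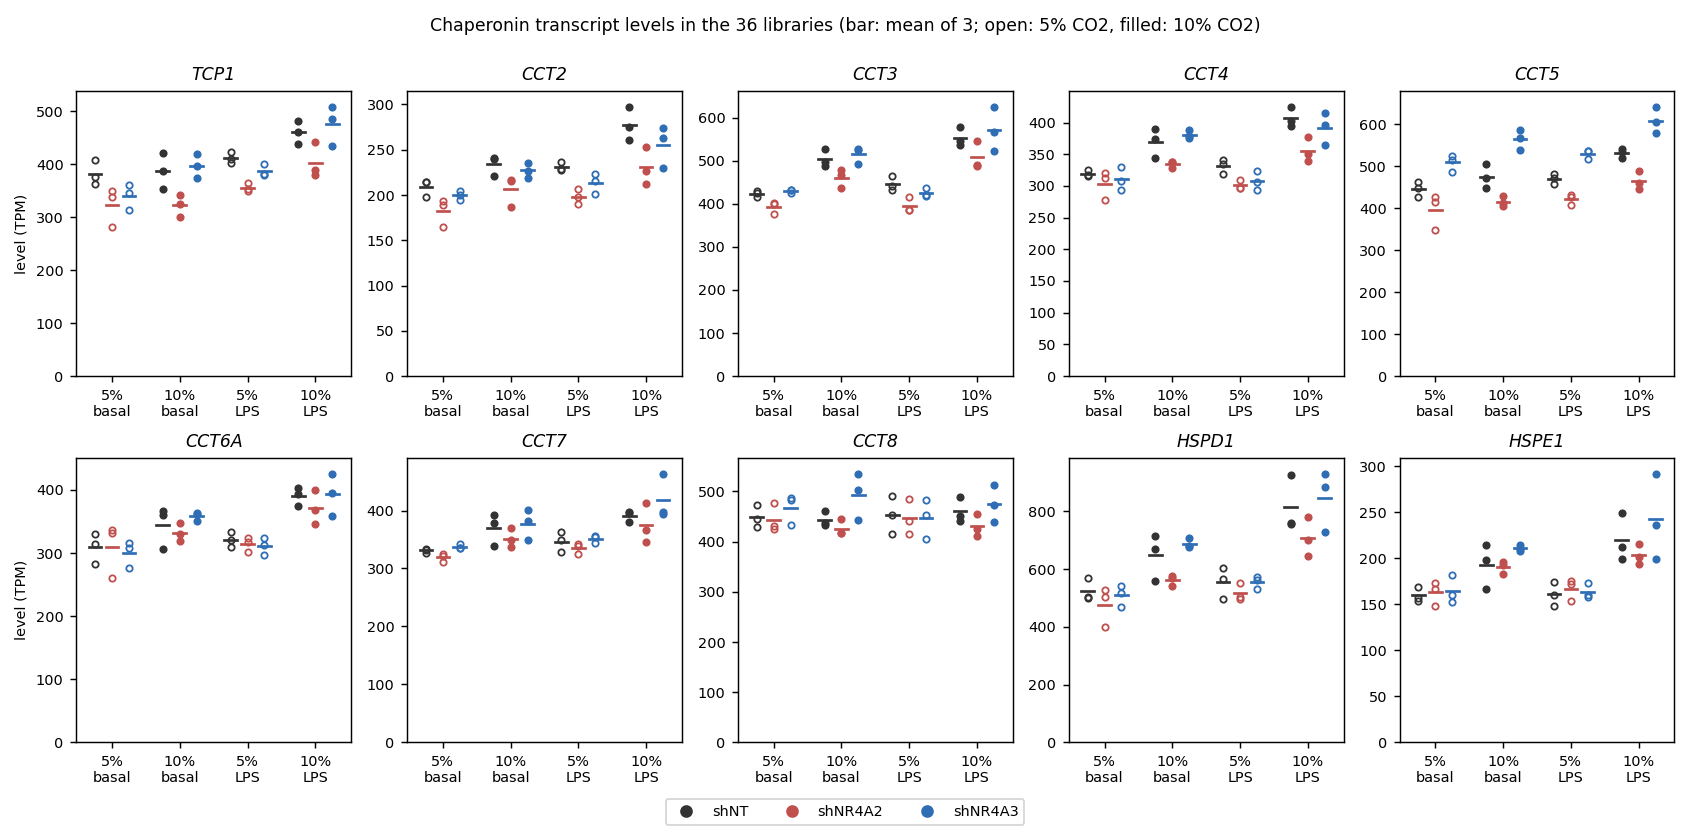
Level in TPM of each of the 10 chaperonin genes in every library, grouped by CO2 level and LPS state; colours mark the lines, open symbols 5% CO2, filled symbols 10% CO2 and bars the mean of 3 libraries. HSPD1 ranges from 477 to 848 TPM over the condition means and CCT8 only from 426 to 494 TPM.

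The first comparison asked whether elevated CO2 changed these transcripts. HSPD1 and HSPE1 had higher mean levels at 10% CO2 in each line, and the response was larger in size with LPS than without. Averaged over the 3 lines, HSPD1 rose 1.31-fold without LPS and 1.54-fold with LPS. Of the 8 TRiC subunits, 6 were called higher without LPS and 7 with LPS in that average, with smaller fold changes than HSPD1 and HSPE1. CCT3 had the largest average change among them and CCT8, which edgeR's main test called in neither state, the smallest. In bulk RNA, a change in the number of cells of one kind and in the RNA per cell cannot be told apart.

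HSPD1 in shNT cells without LPS was at 499, 503 and 569 TPM at 5% CO2 and at 669.9, 716 and 560.4 TPM at 10% CO2. With LPS its values were 497, 565 and 603 TPM at 5% and 757, 924 and 760.2 TPM at 10%. The third library at 10% CO2 without LPS fell within the range at 5%, and with LPS the groups did not overlap on this scale. In shNR4A2 cells HSPD1 was at 502, 399.8 and 528 TPM at 5% CO2 and 577, 543 and 569 TPM at 10%, and with LPS at 497, 503 and 553 TPM and 699.8, 781 and 647 TPM. In shNR4A3 cells it was at 518, 469 and 540.2 TPM at 5% CO2 and 675, 708 and 679 TPM at 10%, and with LPS at 563, 531 and 574 TPM and 884, 931 and 729 TPM. In both knockdown lines every library at 10% CO2 was above every library at 5% in the same LPS state.

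HSPE1, the lid of the same chamber, followed at a lower level. In shNT cells it was at 154, 157 and 169 TPM at 5% CO2 and 198, 215 and 167 TPM at 10%, and with LPS at 149, 161 and 174 TPM and 212, 249 and 199 TPM. In shNR4A2 cells it was at 167, 148 and 174 TPM at 5% CO2 and 196, 193 and 183 TPM at 10%, and with LPS at 172, 154 and 175 TPM and 201, 215 and 194 TPM. In shNR4A3 cells it was at 182, 153 and 160.4 TPM at 5% CO2 and 209.9, 214 and 208 TPM at 10%, and with LPS at 159.9, 158 and 173 TPM and 236, 292 and 199.7 TPM. As for HSPD1, only the third shNT library at 10% CO2 without LPS fell inside the range at 5%.

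Among the TRiC subunits CCT3 had the largest average response. Its values in shNT cells were 430.1, 416 and 424 TPM at 5% CO2 and 497, 528 and 487 TPM at 10%, and with LPS 432, 442 and 465 TPM and 545, 579 and 536 TPM. In TPM, CCT3, CCT4 and CCT7 did not overlap between the CO2 levels in any line when LPS states were kept apart. The share of all genes that separate in TPM was not counted, here or for HSPD1 and HSPE1. CCT8 overlapped in every line and state on this scale: in shNT cells it was at 429, 445 and 473 TPM at 5% CO2 and 433, 461 and 437 TPM at 10%, and with LPS at 416, 492 and 452 TPM and 441, 450.4 and 489 TPM.

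In the test that averaged the response over the 3 lines (edgeR's quasi-likelihood test, Benjamini-Hochberg adjusted over all 17720 genes, called at an adjusted p under 0.05), 8 of the 10 genes were called higher without LPS, against 9.18% of all genes. By edgeR, HSPD1 rose by 0.39 ± 0.06 on the log2 scale (SE; adjusted p = 9.36e-05), HSPE1 by 0.34 ± 0.06 (adjusted p = 0.000195) and CCT3 by 0.30 ± 0.04 (adjusted p = 2.31e-05). CCT4 (0.27), CCT2 (0.23), CCT6A (0.23), CCT7 (0.21) and CCT5 (0.16) were also called. TCP1 (0.14 ± 0.05, edgeR's adjusted p = 0.0824) and CCT8 (0.06 ± 0.04, adjusted p = 0.387) were not. With the replicate number as a block TCP1 was called too, though the numbers did not pair the libraries in every line. Shares of all genes, here and below, were not matched for count level, and the 10 genes had at least 1337 counts in every library. The median log2 fold change of the 10 genes was 0.23, and that of all genes was 0.00. This test took all libraries as independent. Deviations of same-numbered libraries from their condition means correlated between shNT and shNR4A2 cells by 0.35 to 0.61 at 10% CO2 + LPS. Without LPS at 10% CO2 these correlations were -0.22 to 0.40. At 5% CO2 they were 0.54 to 0.65 without LPS and 0.53 to 0.72 with LPS. Between shNT and shNR4A3 cells they were 0.30 to 0.54 at 5% CO2 and 0.28 to 0.39 at 10% CO2 without LPS. With LPS they were 0.41 to 0.65 at 5% CO2 and 0.42 to 0.46 at 10% CO2 between these lines. The adjusted p of the averages, with and without LPS, may therefore be too small.

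With LPS, 9 of the 10 genes were called higher at 10% CO2 in the average over lines, against 15.3% of all genes. By edgeR, HSPD1 rose by 0.62 ± 0.07 (adjusted p = 2.1e-06), HSPE1 by 0.51 ± 0.08 (adjusted p = 7e-05) and CCT3 by 0.45 ± 0.05 (adjusted p = 1.16e-06). CCT4 and CCT6A rose by 0.37 each, CCT2 by 0.33, TCP1 by 0.29, CCT7 by 0.28 and CCT5 by 0.25, which are folds of 1.19 to 1.30. CCT8 was at 0.10 ± 0.04 with an adjusted p of 0.0598. DESeq2 called it, and so did edgeR with the replicate number as a block, though the numbers did not pair these libraries. The median of the 10 genes was 0.35 and that of all genes 0.00. Leaving out any single library left 7 to 9 genes called without LPS and 9 or 10 with LPS.

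**Figure D2:**
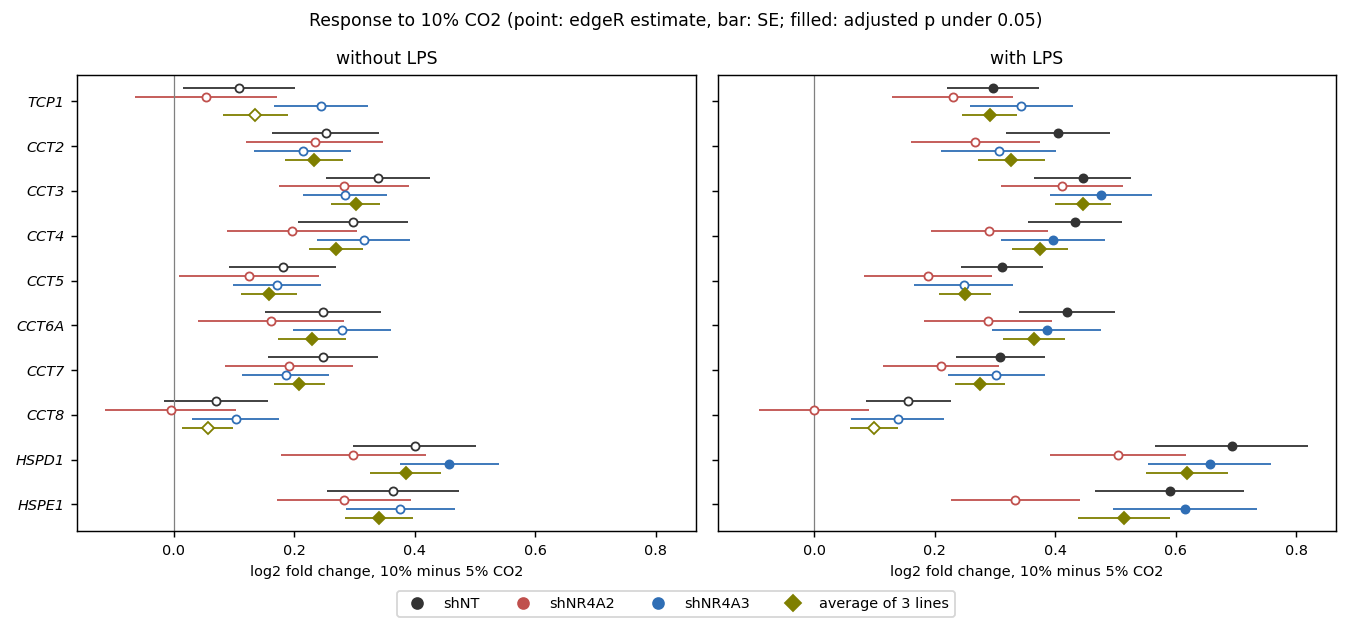
Log2 fold change of each gene at 10% against 5% CO2 in the 3 lines and in their average, without LPS (left) and with LPS (right); points are edgeR estimates, bars their SE, and filled points have an adjusted p under 0.05. HSPD1 has the largest average in both panels (0.39 and 0.62) and CCT8 the smallest (0.06 and 0.10).

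Line by line, with 3 libraries against 3, fewer genes passed. In shNT cells without LPS none was called by edgeR, against 0.327% of all genes called higher by edgeR. An unadjusted p under 0.05 was reached by 7, and DESeq2 called CCT3 and HSPD1. For these 2 counts no share of all genes is given. With LPS edgeR called every gene but CCT8 in this line, 9 of 10 against 4.47%, led by HSPD1 at 0.69 ± 0.13 (adjusted p = 0.0168) and HSPE1 at 0.59 ± 0.12 (adjusted p = 0.0216). This count rested on single libraries: it was 2 without the first and 3 without the second shNT library at 5% CO2 + LPS, and 4 without the second at 10% CO2 + LPS. Without LPS it became 1 when the first and 2 when the third library at 10% CO2 was left out.

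In shNR4A2 cells edgeR called none of the 10 genes in either state, against 0.00564% of all genes without LPS and 0.152% with LPS. An unadjusted p under 0.05 was reached by 3 genes without LPS and 8 with LPS, and DESeq2 called 0 and 2 (CCT3 and HSPD1). The shares of all genes for these counts are not given. HSPD1 had a log2 fold change of 0.30 ± 0.12 without LPS and 0.50 ± 0.11 with LPS. The replicate numbers paired these libraries without LPS, and with the number as a block CCT3 (0.28 ± 0.07) and HSPD1 (0.30 ± 0.07) were called, 2 genes against 0.909% of all genes. With LPS 2 genes were called when the third library at 5% CO2 + LPS was left out.

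In shNR4A3 cells edgeR called HSPD1 alone without LPS (0.46 ± 0.08, adjusted p = 0.0189), against 0.559% of all genes. DESeq2 called 5 there, and its share of all genes is not given. With LPS 5 genes were called, namely HSPD1 (0.66 ± 0.10), HSPE1 (0.62 ± 0.12), CCT3 (0.48 ± 0.08), CCT4 (0.40 ± 0.09) and CCT6A (0.39 ± 0.09), against 0.931% of all genes. Every library left out lowered that count, to 0 without the first or the second library at 10% CO2 + LPS and to 2 or 3 otherwise. Without LPS it was 3 without the first library at 5% CO2 and 0 without the second there or the first or the second at 10%.

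The same response can be read from the separation of the libraries on the log2 CPM scale (CPM, counts per library total with edgeR's TMM scaling). Without LPS, all 3 libraries at 10% CO2 were above all 3 at 5% for 8 genes in shNT cells (10.2% of all genes did so), for 5 in shNR4A2 cells (6.41%) and for 8 in shNR4A3 cells (11.1%). With LPS this held for all 10 genes in shNT cells (15.3% of all genes), for 7 in shNR4A2 cells (10.8%) and for all 10 in shNR4A3 cells (12%). CCT8 was among the genes that overlapped in all 4 of the comparisons in which any did.

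The balance between the subunits was read within each library. The level of a gene was set against the mean log2 TPM of the other subunits, a ratio that the scaling between libraries does not touch. CCT8 was at a median of 0.43 above the other subunits in the 18 libraries at 5% CO2 (0.22 to 0.61) and of 0.24 at 10% CO2 (0.03 to 0.43). Its mean ratio was lower at 10% CO2 in all 6 pairs of conditions, by 0.14 to 0.27, and the 3 libraries of each level did not overlap in 3 of them. CCT3 went the other way, from a median of 0.30 (0.24 to 0.39) to 0.45 (0.39 to 0.53), with no overlap in 6 of 6 pairs. CCT4 rose against the others in all 6 pairs too, from -0.17 to -0.09, with no overlap in 5.

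The mitochondrial pair rose against the TRiC subunits. HSPD1 was at a median of 0.59 (0.43 to 0.69) above them at 5% CO2 and of 0.83 (0.63 to 1.08) at 10%, higher in all 6 pairs and without overlap in 5. HSPE1 went from -1.11 (-1.25 to -0.95) to -0.91 (-1.12 to -0.68), higher in all 6 pairs and without overlap in 4. These ratios, of the subunits and of the mitochondrial pair, are a description of the same 36 libraries and were not tested. They were not formed for other genes, so how common such separation is remains unknown.

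**Figure D3:**
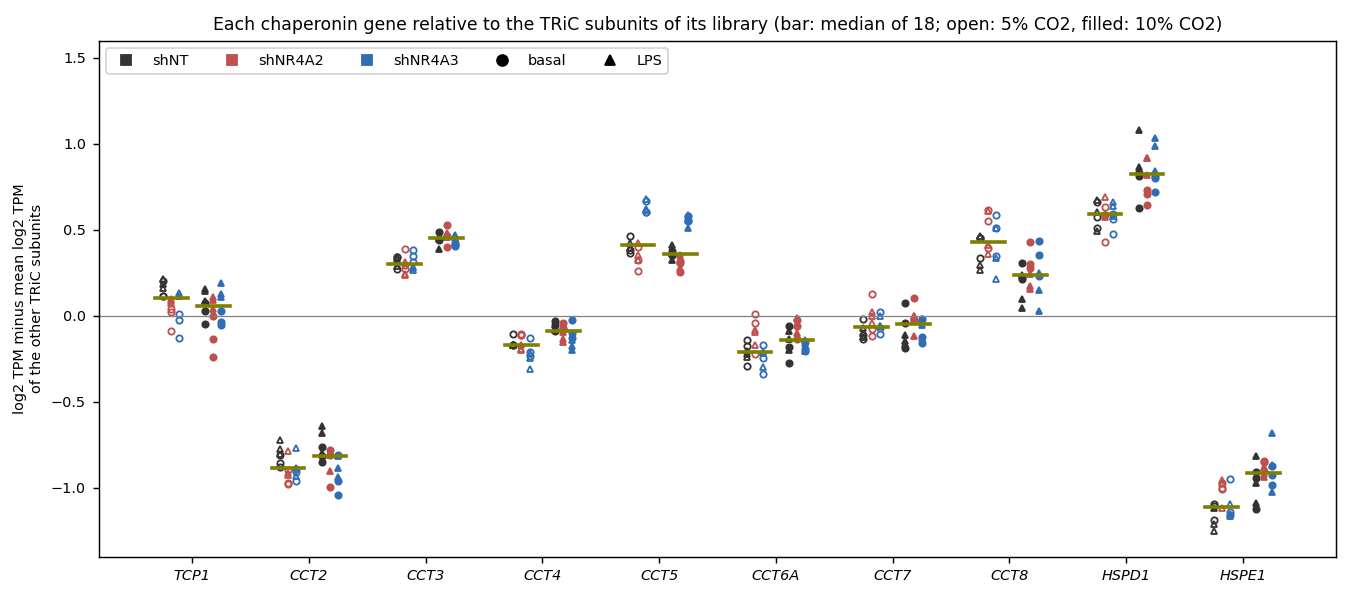
Log2 TPM of each gene minus the mean log2 TPM of the other TRiC subunits in the same library, at 5% CO2 (open) and 10% CO2 (filled), with the lines as colours, LPS as triangles and the median of 18 libraries as a bar. CCT8 moves from 0.43 to 0.24 and HSPD1 from 0.59 to 0.83, while CCT2 stays lowest among the subunits.

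Whether LPS or the line changed the CO2 response was tested as an interaction. Averaged over lines, the response was larger with LPS for all 10 genes in sign, by 0.05 (CCT8) to 0.24 (HSPD1, SE 0.09, adjusted p = 0.174 by edgeR). None was called by edgeR or DESeq2, against 2.93% of all genes called by edgeR in either direction. By each tool 3 had an unadjusted p under 0.05, for which no share of all genes is given. The unadjusted 95% intervals of the 10 differences lay between -0.07 and 0.43. Those of HSPD1 (0.05 to 0.43), CCT3 (0.02 to 0.27) and TCP1 (0.01 to 0.30) did not include 0, and these differences did not pass the adjustment over all genes. In no line did the response differ detectably from that of shNT cells: edgeR and DESeq2 called none of the genes, none had an unadjusted p under 0.05, and no gene of the whole table was called by edgeR (0%) in any of the 4 interactions. In shNR4A2 cells all 10 differences were negative, from -0.10 to -0.02 without LPS and from -0.24 to -0.02 with LPS, with 95% intervals reaching from -0.63 to 0.29, and with library size only 1 of the 10 was above 0 with LPS. In shNR4A3 cells they lay between -0.08 and 0.13, with intervals from -0.43 to 0.50.

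Genes that work with the chaperonins were read in the average over the 3 lines, where their CO2 responses were less even. In that average edgeR called 9.18% of all genes higher without LPS and 15.3% with LPS. The share called lower is not given, here or for the lists in the next paragraph. Of the 6 prefoldin subunits, PFDN2 (0.21 ± 0.05) and PFDN6 (0.18 ± 0.06) were called higher without LPS. With LPS PFDN2 (0.25), VBP1 (0.24) and PFDN6 (0.19) rose and PFDN1 fell by 0.26 on the log2 scale. Of 10 mitochondrial matrix chaperones and proteases, the J protein DNAJA3 (0.25 ± 0.05) and the nucleotide exchange factor GRPEL1 (0.23 ± 0.05) were called higher without LPS. With LPS GRPEL2 (0.34), GRPEL1 (0.24), DNAJA3 (0.24) and the HSP90 relative TRAP1 (0.11) rose, and the protease subunit AFG3L2 fell by 0.17. The mitochondrial HSP70 HSPA9 was at 0.03 ± 0.05 and 0.09 ± 0.05 and was called in neither state.

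In the same average, of the 10 actin and tubulin genes, which encode the main TRiC clients, none was called without LPS and TUBB4B alone, lower, with LPS, and their median log2 fold changes were -0.02 and -0.09. Of the 3 phosducin-like TRiC cofactors PDCL fell by 0.20 without LPS and none was called with LPS. Of the 4 chaperonin relatives tested MKKS rose by 0.20 without LPS, and with LPS CCT6B, the paralogue of CCT6A, fell by 0.58. HSF1, the main heat shock factor, was at -0.01 ± 0.05 without LPS and -0.04 ± 0.04 with LPS, and was called in neither. HSF2 was called higher with LPS (0.22 ± 0.06) and was at 0.00 without it.

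LPS against no LPS gave positive log2 fold changes for all 10 genes in every line. At 5% CO2 they ranged from 0.16 to 0.41 over genes and lines, and at 10% CO2 from 0.22 to 0.61. TCP1 or CCT2 stood highest at 5% CO2 and HSPD1 at 10% CO2. At 5% CO2, 9 genes were called higher in shNT cells, all but HSPE1, against 11.2% of all genes. In shNR4A2 cells these were 3 (TCP1, CCT2 and CCT7, against 8.91%) and in shNR4A3 cells 5 (TCP1, CCT2, CCT5, CCT7 and HSPD1, against 11.9%). At 10% CO2 all 10 were called in each line, against 15.1% of all genes in shNT, 16.5% in shNR4A2 and 20.6% in shNR4A3 cells, with HSPD1 at 0.61 ± 0.12, 0.61 ± 0.11 and 0.57 ± 0.09 and TCP1 at 0.52 ± 0.10, 0.60 ± 0.10 and 0.54 ± 0.07.

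The size of the LPS response depends on the scaling. TMM centres the genes on a common middle, and with the library size alone the median of all genes moved by -0.18 to -0.25 with LPS. On that scale the 10 genes kept a positive sign except CCT8 in shNR4A3 cells (-0.036 at 5% and -0.034 at 10% CO2), but their median changes were only 0.08 to 0.12 at 5% CO2 and 0.17 to 0.22 at 10%. None was called at 5% CO2 in any line, and at 10% CO2 HSPD1 and TCP1 were called in all 3 lines and CCT2 in shNT cells. In TPM, which like library size counts shares of the total, HSPD1 in shNT cells was 524 ± 39.4 without and 555 ± 53.8 with LPS at 5% CO2, values that overlap, and 649 ± 80.0 and 814 ± 95.8 at 10%.

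**Figure D4:**
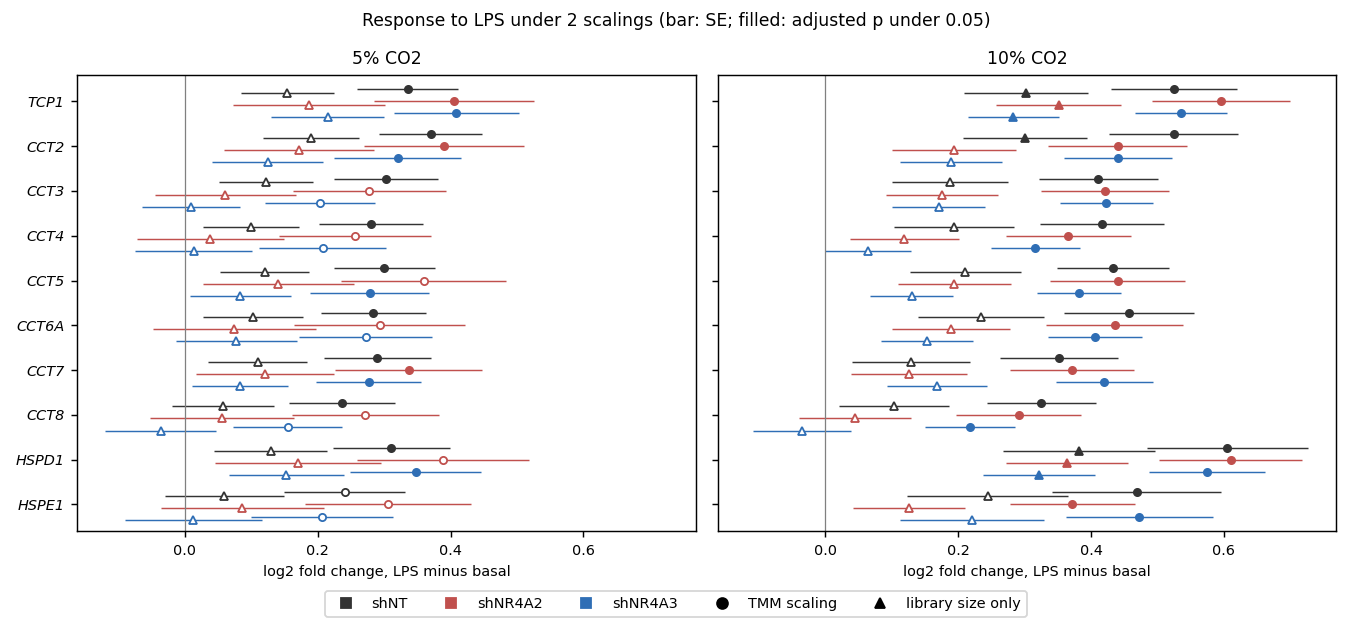
Log2 fold change of each gene with LPS against no LPS at 5% CO2 (left) and 10% CO2 (right) in the 3 lines, under TMM scaling (circles) and library size only (triangles); bars are SE and filled symbols have an adjusted p under 0.05. The 10 genes are all called with TMM scaling at 10% CO2, and with library size only none is called at 5% CO2.

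At 5% CO2 the counts also turned on single libraries. In shNT cells 5 genes were left without the first library at 5% CO2 and 3 without the third at 5% CO2 + LPS. In shNR4A2 cells 6 were called without the second library at 5% CO2 + LPS and 0 without any other single library. In shNR4A3 cells the count was 8 without the second library at 5% CO2 + LPS, 1 without the first or the third there or the second at 5% CO2, and 2 without the third at 5% CO2. The replicate numbers paired these libraries in both knockdown lines. With the number as a block, 10 genes were called in shNR4A2 cells against 12.9% of all genes, and 9 in shNR4A3 cells against 16.7%.

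The LPS response at 5% CO2 did not differ detectably between the knockdown lines and shNT cells. The differences lay between -0.01 and 0.09 for shNR4A2 and between -0.09 and 0.08 for shNR4A3, with 95% intervals from -0.34 to 0.45. None of the 10 genes was called by edgeR or DESeq2, none had an unadjusted p under 0.05, and edgeR called no gene of the table (0%) in either interaction.

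With LPS at 5% CO2 some partner genes were called by edgeR with TMM scaling, and other scalings were not read for them. In shNT, shNR4A2 and shNR4A3 cells edgeR called 11.2%, 8.91% and 11.9% of all genes higher. The share called lower is not given. Of the 10 actin and tubulin genes 4 were called higher in shNT (TUBB2A, TUBA1C, ACTG1 and ACTB), 1 in shNR4A2 and 3 in shNR4A3 cells. At 5% CO2 the tubulin TUBB2A rose in all 3 lines (by 1.26 to 1.83), and so did HSPA9 (0.43 in shNT, 0.41 in shNR4A2 and 0.40 in shNR4A3 cells). The mitochondrial unfoldase subunit CLPX fell by 0.39, 0.55 and 0.70 in the same order, and the chaperonin-like BBS10 fell by 0.82, 1.20 and 0.90. HSPA9 and CLPX were the only calls among the 10 mitochondrial matrix chaperones and proteases in each line. Of the 4 chaperonin relatives tested, BBS12 was also called lower in shNT cells. VBP1 was the one prefoldin subunit of 6 called at 5% CO2, in shNT cells (0.32 ± 0.10), and none of the 3 TRiC cofactors was called.

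The last comparison set each knockdown line against shNT cells in the same condition, so both lines share the shNT libraries. In shNR4A2 cells most of the genes were lower in value, with medians of -0.09, -0.18, -0.07 and -0.19 at 5% CO2, 10% CO2, 5% CO2 + LPS and 10% CO2 + LPS. The medians of all genes were 0.00, -0.01, 0.00 and 0.00. Of the 10 genes edgeR called only CCT2, lower at 10% CO2 + LPS, at -0.30 ± 0.10 with an adjusted p of 0.0453. CCT2 was at 275, 297 and 261 TPM in shNT and at 227, 253 and 212 TPM in shNR4A2 cells there, and the groups did not overlap. How many of all genes separate the lines in this way was not counted. The percentages of all genes called in these 4 comparisons, in either direction, were 5.69%, 7.95%, 6.21% and 18.9%, and 1 gene of 10 is a smaller share than the last of them.

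The CCT2 call was at the threshold: it was lost without the first or the second shNT library and without the second or the third shNR4A2 library, and became 3 genes without the first shNR4A2 library. In the other 3 conditions edgeR and DESeq2 called none, and 1, 3 and 0 genes had an unadjusted p under 0.05 by each tool. The replicate numbers paired the lines at 5% CO2 in both LPS states and at 10% CO2 + LPS. With the number as a block TCP1 (-0.24 ± 0.06), CCT2 (-0.20 ± 0.06) and CCT5 (-0.18 ± 0.06) were called lower at 5% CO2, 3 genes against 21.5% of all genes. At 10% CO2 + LPS it was 6 genes, against 34.8%, adding CCT3 (-0.15 ± 0.06), CCT4 (-0.23 ± 0.06) and HSPD1 (-0.23 ± 0.06). TCP1 was at 438, 481 and 461 TPM in shNT and at 379, 441 and 388 TPM in shNR4A2 cells there, ranges that overlap by the second shNR4A2 library.

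In shNR4A3 cells CCT5 stood apart from the other subunits in value. It was at 525, 487 and 515 TPM at 5% CO2 against 463, 426 and 449 TPM in shNT cells, and at 539, 568 and 586 TPM against 472, 505 and 449 TPM at 10% CO2. With LPS it was at 537, 517 and 535 TPM against 457, 472 and 481 TPM at 5% CO2, and at 605, 640.4 and 579 TPM against 519, 533 and 542 TPM at 10%. The lines did not overlap in any of the 4 conditions. How many of all genes separate the lines in this way was not counted. The log2 fold changes were 0.24 ± 0.08, 0.22 ± 0.08, 0.23 ± 0.08 and 0.17 ± 0.07, in the order 5% CO2, 10% CO2, 5% CO2 + LPS and 10% CO2 + LPS.

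None of the 10 genes was called in these comparisons by edgeR or DESeq2, against 6.19%, 6.85%, 5.41% and 14.5% of all genes called by edgeR in either direction. CCT5 was the 1 gene with an unadjusted p under 0.05 in each, for which no share of all genes is given. The adjusted p of CCT5 was 0.103 to 0.125. The replicate numbers paired the lines in all 4 conditions, and with the number as a block CCT5 alone was called in each (adjusted p 0.0182 to 0.0376), against 13%, 13.5%, 18.7% and 24.9% of all genes. At 5% CO2 + LPS it was also called when the second shNR4A3 library was left out.

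**Figure D5:**
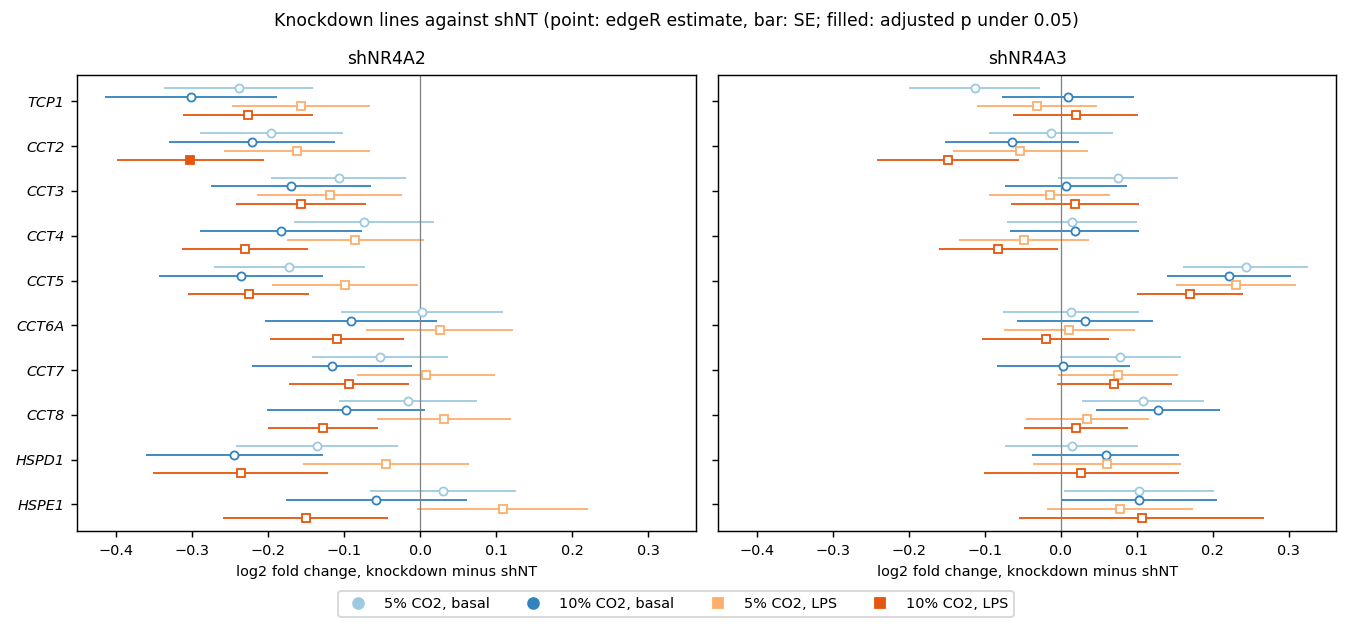
Log2 fold change of each gene in shNR4A2 (left) and shNR4A3 (right) cells against shNT cells in the 4 conditions; points are edgeR estimates, bars their SE, and the filled point has an adjusted p under 0.05. CCT2 at 10% CO2 + LPS in shNR4A2 cells (-0.30) is the only call, and CCT5 in shNR4A3 cells lies at 0.17 to 0.24 in all conditions.

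Over the 36 libraries the 10 genes varied together in log2 CPM. The closest pair was CCT4 with HSPD1 (Pearson r = 0.98), a cytosolic subunit with a mitochondrial chaperonin, and the loosest was CCT8 with HSPE1 (0.72). CCT8 had the lowest median correlation with the other 9 genes (0.77, against 0.86 to 0.94 for the rest). With the condition means removed, CCT4 and HSPD1 still had r = 0.92, whereas CCT8 with CCT2 fell to -0.12. The genes outside the set whose pattern was nearest to the mean of the 8 subunits were HSP90AA1 (r = 0.97), BZW2 (0.96), LARS1 (0.96), DNAJA1 (0.95) and LYAR (0.95). For HSPD1 they were HSP90AA1 (0.97), LARS1 (0.94), SRSF10 (0.94), SSB (0.93) and ZNF271P (0.93). These correlations describe libraries that share CO2, LPS, line and scaling, and they carry no test.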

How the data were processed

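Poly(A) RNA of 36 THP-1 samples was sequenced by the authors. Per the submitters' processing notes and the study's methods, the authors used Trimmomatic 0.36 for trimming, STAR 2.5.2b for alignment to GRCh38 and featureCounts of Subread 1.5.2 for the raw gene counts that were deposited, 1 library per file. The annotation release and the strand setting are not given in the sources used here. Totals were 16171161 to 23929138 counts (median 19639071).

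Of 57500 gene identifiers 56410 (98.1%) matched a table of gene symbols, and GENCODE 44 placed the printed sequences. Genes were kept by edgeR's filter (minimum count 10, minimum total 15), which left 17720. Within each comparison, libraries were scaled by TMM and tested with edgeR 4.0.16 (quasi-likelihood F-test, R 4.3.3), Benjamini-Hochberg adjusted over all genes kept, and called at an adjusted p under 0.05. Tests are two-sided. The study's methods name DESeq2, which was run as an alternative (version 1.42.0). Intervals are 95% intervals from the SE with 28 residual degrees of freedom for CO2 by LPS and 8 for the comparisons by line. Scripts were tested on simulated data. No 2 replicates held the same counts within sampling noise (chi-square divided by its degrees of freedom, 5.98 to 26.2 over 36 pairs).

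Replicate numbers were taken as pairs where the deviations of every same-numbered pair from the group means correlated over 0.1 across genes, which held in 13 of 20 comparisons (correlations of -0.40 to 0.72). The alternatives were RLE or library size scaling, no filter, DESeq2, 1 fit to all 36 libraries, a replicate block, each library left out, HSPE1-MOB4 counts added to HSPE1, and CPM in place of TPM. All 10 genes are named. Partner genes come from lists by function and are named only in part, from those called, with HSPA9, HSF1 and HSF2 also given where not called, and the 5 genes most like the set were taken by Pearson's r. The members and lists were chosen with earlier results of these data known. The result for a further cell type marker is not reported here.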

Additional observations from a re-analysis of the deposited data

How the results depend on the processing

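Across the alternatives, 234 of 4409 refitted fold changes of the 10 genes changed sign, all to values of at most 0.13 in size. Of these, 220 (of 2054) belonged to the knockdown comparisons and the differences between lines. The other 14 (of 2355) were CO2 or LPS responses of CCT8 or TCP1 close to 0. For CO2 in shNR4A2 cells without LPS, CCT8 became 0.000858 with RLE scaling, 0.000865 with DESeq2, 0.03 without the third library at 5% CO2 and 0.041 without the second at 10%, with a range of -0.034 to 0.041 over the libraries left out. TCP1 became -0.020 without the second at 5%, with a range of -0.020 to 0.13. With LPS CCT8 became -0.011 with library size only, -0.018 with no filter, -0.00432 with DESeq2, -5.99e-06 with the replicate block, and it ranged from -0.014 (without the second library at 10% CO2 + LPS) to 0.029 over the libraries left out, 3 of which turned it. For LPS in shNR4A3 cells with library size only, CCT8 became -0.036 at 5% and -0.034 at 10% CO2.

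The number of the 10 genes called moved more than the fold changes did, and the cause was not tested unless the setting itself removes libraries. For CO2 without LPS, shNT cells had 1 with no filter, 2 with DESeq2 and 1 in the fit to all 36 libraries in place of 0. In shNR4A3 cells the count of 1 became 4 with library size only, 5 with no filter, 5 with DESeq2 and 0 in the fit to all libraries. With LPS, shNR4A2 cells had 2 with no filter, 2 with DESeq2 and 3 in the fit to all libraries in place of 0, and shNR4A3 cells 3 with library size only and 8 with no filter in place of 5. For LPS at 5% CO2, library size only gave 0 in each line. In shNR4A2 cells DESeq2 gave 5 and the fit to all libraries 9, and in shNR4A3 cells the latter gave 8. At 10% CO2 library size only gave 3 in shNT and 2 in each knockdown line. For shNR4A2 against shNT, the fit to all libraries gave 1 at 10% CO2, and at 10% CO2 + LPS the count of 1 became 0 with RLE, 2 with library size only, 5 with no filter and 2 with DESeq2. Adding the HSPE1-MOB4 counts changed no count.

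With the replicate block, where the numbers paired the libraries, the count became 2 for CO2 in shNR4A2 cells without LPS, 10 and 9 for LPS at 5% CO2 in shNR4A2 and shNR4A3 cells, 3 and 6 for shNR4A2 against shNT at 5% CO2 and 10% CO2 + LPS, and 1 for shNR4A3 against shNT in each of the 4 conditions. Where the numbers did not pair them, the block gave 6 for CO2 in shNR4A3 cells without LPS and 2 in shNR4A2 cells with LPS. It changed no other count by over 1.5 times.

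Leaving out 1 library at a time gave 0 to 2 genes for CO2 in shNT cells without LPS, 0 to 3 in shNR4A3 cells, and with LPS 2 to 9 in shNT, 0 to 2 in shNR4A2 and 0 to 3 in shNR4A3 cells. For LPS at 5% CO2 it gave 3 to 10 in shNT, 0 to 6 in shNR4A2 and 1 to 8 in shNR4A3 cells. For the knockdowns it gave 0 to 3 at 10% CO2 + LPS in shNR4A2 and 0 to 1 at 5% CO2 + LPS in shNR4A3 cells. The mean LPS difference of HSPD1 on the log2 scale was 0.11 in TPM and 0.35 in CPM at 5% CO2, and 0.32 and 0.58 at 10%. The 10 genes had at least 1337 counts in every library, and a p that misses the threshold leaves a difference within its interval possible.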
